A study of Homo sapiens with 18 samples.

Results

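The response of posterior neural ectoderm to a midbrain medium was followed by comparing cells kept for 2 further days in that medium (pNE_M, day 4) with the day-2 cells they came from (pNE). The comparison rests on 4 of the 18 RNA libraries of the series, 2 replicates per group, and on the 14744 genes that reached 1 TPM in 2 or more of these 4 libraries. TPM is a transcript level corrected for transcript length and scaled to the same total in every library. All cells were of the wild-type H1 line, an established human pluripotent stem cell line. For every neural ectoderm group the first day was spent in CDM2 with 250 nM trametinib (a MEK inhibitor), 1 µM C59 (which blocks WNT secretion), 1 µM A8301 (a TGF-beta receptor inhibitor) and 100 nM LDN193189 (a BMP receptor inhibitor). On day 2 the posterior cells received TTNPB at 50 nM (a retinoic acid receptor agonist), 20 ng/mL FGF2 and XAV939 at 1 µM (a tankyrase inhibitor that lowers WNT signalling), again with 1 µM A8301 and 100 nM LDN193189, and 1 µM thiazovivin for survival after passage. The anterior cells (aNE) used for comparison received 1 µM C59 in place of TTNPB, FGF2 and XAV939, and became aNE_M in the same midbrain medium. Posterior cells taken to day 4 in forebrain medium (pNE_T) and hindbrain medium (pNE_H) were the other references. What the midbrain medium contained is not used here. Cells for day 2 were plated at 37500 per cm2, posterior cells for day 4 at 150000 per cm2 and anterior cells for day 4 at 75000 per cm2, so that medium, day and density cannot be told apart in the comparison with pNE.

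Along the head-to-tail axis of the vertebrate embryo, neural cells acquire position from retinoic acid, FGF and WNT signals. The HOX genes lie in 4 clusters, and genes towards one end of a cluster (low group numbers) are used in the hindbrain while genes further along (higher numbers) mark progressively more caudal cord and trunk. CDX transcription factors, which respond to WNT and FGF, activate central HOX genes in the tail bud and spinal cord. The midbrain lies ahead of the HOX-expressing territory and is defined with its neighbouring isthmus by EN1, EN2, PAX2, PAX5 and LMX1B. 

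Between 13984 and 14679 genes reached 1 TPM in each of the 4 libraries, and the depth of sequencing is unknown. Pearson's r across tested genes was 0.983 between the pNE replicates and 0.985 between the pNE_M replicates, against 0.907 to 0.911 between the groups. Mitochondrial transcripts took 2.96% and 3.74% of the pNE libraries and 2.04% and 1.80% of the pNE_M libraries. Their part in the results was not tested. A gene was called changed at a limma adjusted p under 0.05, Benjamini-Hochberg over all tested genes, together with a change of 1 or more, in either direction, on log2(TPM + 1). By this rule 2156 genes (14.6%) changed, 826 higher (5.60%) and 1330 lower (9.02%) in pNE_M, and 199 moved by over 3 log2 units. The p-values rest on a spread between replicate libraries that was pooled over all 18 libraries, and not on the 4 compared ones alone. The labels do not say whether replicates came from separate cultures, so this spread may be technical. The median over all tested genes was -0.06. Of the called genes, 633 lay below 1 TPM in both libraries of one group. Such genes entered the test only through the group where they were high, so the counts below are descriptions to be read beside these percentages. In bulk RNA, fewer cells of a type and less RNA per cell cannot be told apart.

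**Figure D1:**
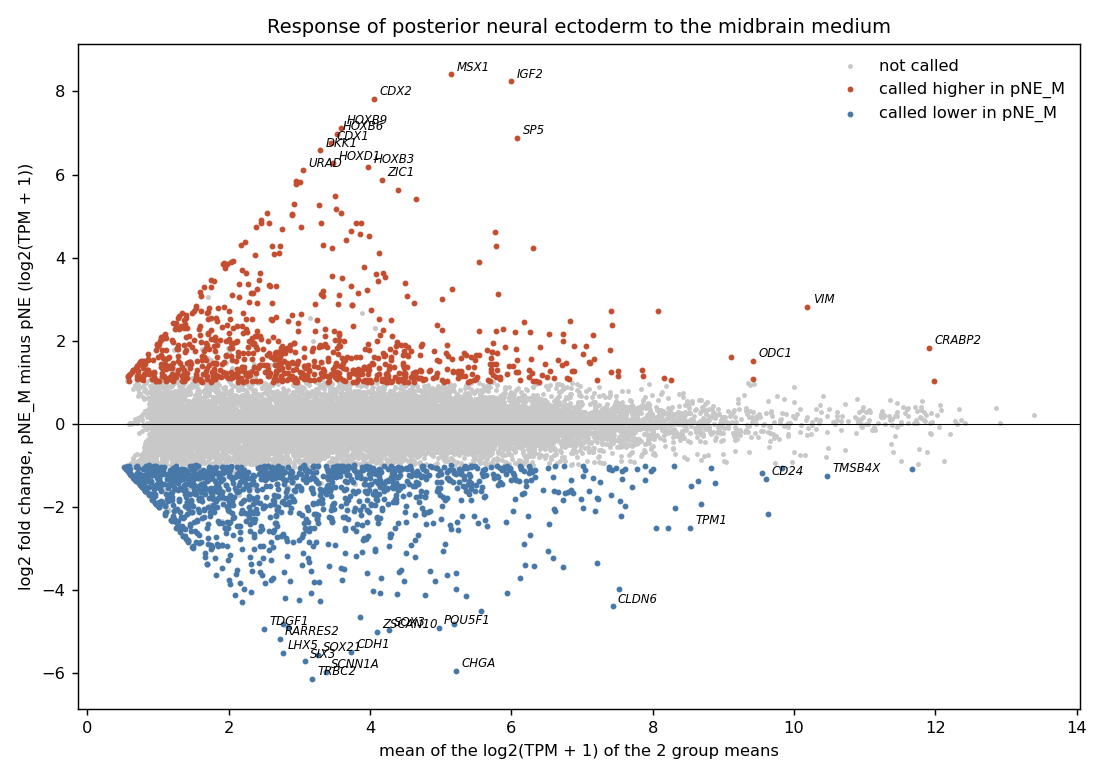
Log2 fold change of pNE_M over pNE (y axis) against the mean log2(TPM + 1) of both groups (x axis), 1 point per tested gene, grey where not called, red where called higher and blue where called lower. MSX1, IGF2 and CDX2 stand highest, and CLDN6 and TPM1 are abundant genes that fell.

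The 12 largest rises were led by MSX1, IGF2, CDX2, HOXB9 and HOXB6, followed by SP5, CDX1, DKK1, HOXD1, HOXB3, URAD and ZIC1. MSX1, a homeobox gene of the dorsal neural tube and neural plate border, read 0.996 and 0.855 TPM in pNE and 666 and 646 TPM in pNE_M (log2 fold change 8.42 ± 0.20 SE, limma adjusted p = 4e-12). IGF2, a fetal growth factor, read 2.18 and 3.21 TPM in pNE and 1064 and 1156 TPM in pNE_M. Both genes went from below 4 TPM to above 600 TPM. Their groups did not overlap, but this held for every called gene and so adds nothing to the call. IGF2 overlaps the read-through gene INS-IGF2 and shares its reads, so its value is uncertain to that extent. By absolute level, the largest rises were in CRABP2, the cellular retinoic acid binding protein, from 2091 and 1982 TPM to 6949 and 7519 TPM, and in the intermediate filament gene VIM, from 394 and 487 TPM to 3008 and 3168 TPM. IGF2, ODC1 (the first enzyme of polyamine synthesis) and SP5 came next. 

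WNT target and feedback genes rose in most cases. Of 16 tested WNT target and feedback genes, 13 were called higher and the other 3 (TCF7, NKD2 and WIF1) did not pass, against 5.60% of all tested genes called higher. The list's median was 2.62 on the log2 scale, where the median over all genes was -0.06. 4 of the 13 called genes (NOTUM, RNF43, LGR5 and DKK1) were below 1 TPM in both pNE libraries and so had to differ to be tested. AXIN2, a feedback scaffold that helps degrade beta-catenin, read 9.45 and 10.6 TPM in pNE and 272 and 268 TPM in pNE_M (log2 fold change 4.62 ± 0.10 SE, limma adjusted p = 1.8e-12). LEF1, a nuclear partner of beta-catenin, went from 3.34 and 2.37 TPM to 159 and 164 TPM, and the intracellular inhibitor NKD1 from 2.20 and 1.80 TPM to 156 and 139 TPM. The secreted antagonist DKK1 was listed at 0 in both pNE libraries and read 91.8 and 97.6 TPM in pNE_M. SP5, a zinc finger repressor downstream of beta-catenin that was counted in the caudal progenitor list and not among these 16, read 2.47 and 8.76 TPM in pNE and 756 and 625 TPM in pNE_M, with a wider gap between the pNE replicates than in AXIN2, LEF1 and NKD1. In each of these genes both pNE_M libraries lay above both pNE libraries, as in every gene called higher, so this does not set them apart. The growth regulator CCND1 rose less, from 107 and 113 TPM to 246 and 278 TPM.

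Promoters bear on this because TCF and LEF proteins bind a short core, CTTTGA, which reads on the opposite strand as TCAAAG. In RefSeq promoters on GRCh38.p14, 250 bases before the gene's start were searched on both strands. The table held 7 of the 12 genes with the largest rises, and 4 of them (SP5, DKK1, CDX2 and URAD) carried the core while MSX1, HOXD1 and ZIC1 did not. SP5, DKK1 and CDX2 are shown 5′ to 3′ on the gene's strand, with the core in capitals; no 2 matches overlapped. The windows are chr2:170715087-170715336 (plus strand) for SP5, chr10:52314031-52314280 (plus strand) for DKK1 and chr13:27969316-27969565 (minus strand) for CDX2, whose RefSeq start lies inside the longer GENCODE span of the gene.
SP5: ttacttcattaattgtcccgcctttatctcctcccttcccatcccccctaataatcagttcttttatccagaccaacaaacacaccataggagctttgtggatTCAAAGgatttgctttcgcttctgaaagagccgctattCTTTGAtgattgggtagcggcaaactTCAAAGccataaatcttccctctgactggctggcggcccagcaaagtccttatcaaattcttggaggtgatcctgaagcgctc
DKK1: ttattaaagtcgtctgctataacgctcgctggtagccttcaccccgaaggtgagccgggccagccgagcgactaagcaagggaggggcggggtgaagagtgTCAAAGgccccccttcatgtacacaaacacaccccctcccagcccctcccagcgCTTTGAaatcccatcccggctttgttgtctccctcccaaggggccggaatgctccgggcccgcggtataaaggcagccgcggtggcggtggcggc
CDX2: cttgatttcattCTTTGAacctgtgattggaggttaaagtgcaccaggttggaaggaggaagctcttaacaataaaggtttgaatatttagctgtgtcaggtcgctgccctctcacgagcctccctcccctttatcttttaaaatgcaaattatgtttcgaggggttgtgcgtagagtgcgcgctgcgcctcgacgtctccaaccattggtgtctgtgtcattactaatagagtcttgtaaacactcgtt
SP5 held 3 matches, beginning 147, 109 and 83 bases before its start, DKK1 held 2, at 149 and 95 bases, and CDX2 held 1, at 238 bases. A core of this length is common: it was in 11.2% of all 35116 promoters, in 8.08% of promoters of tested genes, in 10.6% of the 896 promoters of genes called higher and in 7.43% of the 1468 promoters of genes called lower. In the WNT target list, which does not include SP5, 10 of the 16 tested genes had promoters to search. Of their 13 promoters 1 held the core, that of DKK1. These shares count promoters, whereas the 4 of 7 above counts genes, URAD having 2 promoters. No share by gene was taken, so the 4 of 7 cannot be read as more than usual. The CDX core TTTATTG or TTTATGG, searched the same way, was in 5.36% of promoters of genes called higher, 3.20% of those called lower and 3.56% of those tested. These matches are descriptions of sequence and not binding sites.

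WNT ligands, receptors and secreted antagonists did not move as a block: of 23 tested, 9 were called higher and 9 lower (median 0.17). The receptor FZD10 rose from 1.47 and 1.76 TPM to 76.3 and 70.1 TPM, and FZD4 from 3.36 and 3.53 TPM to 14.5 and 14.9 TPM. FZD8, in contrast, fell from 18 and 25.0 TPM to 0.720 and 0.671 TPM, and FZD5 from 17.0 and 21.4 TPM to 1.73 and 1.83 TPM. Both are Frizzled receptors of the anterior neural plate. The secreted WNT-binding proteins SFRP1 (459 and 480 TPM to 44.4 and 46.4 TPM), SFRP2 and FRZB all fell. Among ligands, WNT3 reached 6.15 and 6.59 TPM and WNT6 5.49 and 4.05 TPM, both from below 1 TPM, whereas WNT4 fell from 8.69 and 10.4 TPM to 1.63 and 0.872 TPM. WNT1, the ligand of the midbrain roof and isthmus, was listed at 0 in both pNE_M libraries.

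HOX genes gained both level and reach. Summed over 39 HOX genes, 197 to 214 TPM in pNE became 1348 to 1427 TPM in pNE_M. The number of HOX genes with at least 1 TPM in both libraries was 5 in pNE and 22 in pNE_M. Among them, the highest group number per cluster in pNE_M was 7 in HOXA, 9 in HOXB, 6 in HOXC and 4 in HOXD, whereas in pNE it was 3 in HOXA and 2 in HOXB, with no such HOXC or HOXD gene. 

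**Figure D2:**
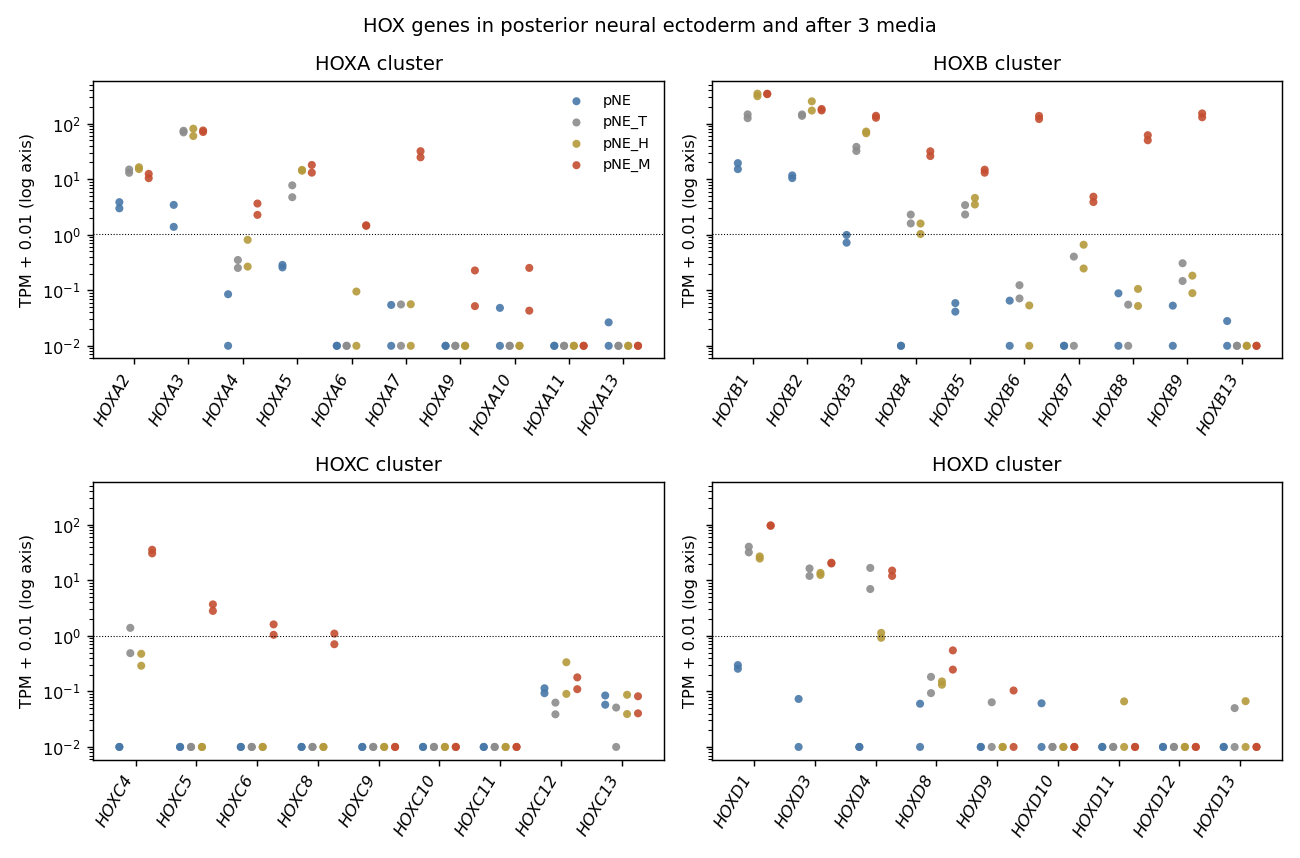
Level of HOX genes (TPM + 0.01, log axis) by cluster, with genes ordered by group number along the x axis and 1 point per library for pNE, pNE_T, pNE_H and pNE_M; the dotted line is 1 TPM. The pNE_M points (red) are the only ones above the line for HOXB6, HOXB8, HOXB9 and HOXA7.

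All 12 HOX genes of groups 1 to 4 were tested, and 11 were called higher and 1 lower (median 4.31). For 7 of the 12 both pNE libraries lay below 1 TPM, so those 7 passed the expression minimum through pNE_M alone. HOXB1, a gene of a single hindbrain segment, went from 15.2 and 19.5 TPM to 340 and 346 TPM. HOXB2 went from 10.5 and 11.7 TPM to 173 and 184 TPM, and HOXB3 from 0.981 and 0.709 TPM to 139 and 128 TPM. Groups 5 to 9 hold 15 genes, of which 10 were tested, and all 10 were called higher. Each of those 10 passed the expression minimum through pNE_M alone, and the 5 not tested (HOXC8, HOXD8, HOXA9, HOXC9 and HOXD9) reached at most 1.09 TPM. HOXB9 read 0.0429 and 0 TPM in pNE and 153 and 130 TPM in pNE_M (log2 fold change 7.12 ± 0.17 SE). HOXB6 read 0 and 0.0550 TPM, then 138 and 121 TPM, and HOXB8 0.0781 and 0 TPM, then 62.0 and 50.3 TPM. Between them, HOXB7 was only at 4.83 and 3.87 TPM, so level did not follow position within the cluster. None of the 12 genes of groups 10 to 13 was tested, the highest value in these 4 libraries being 0.243 TPM for HOXA10. HOX clusters are dense in antisense and overlapping transcripts, and since the use of strand is not given in the sources used here, neighbouring transcripts may share reads.

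CDX2 and CDX1, the caudal regulators, were among the genes that moved most. CDX2 read 0.158 and 0.0490 TPM in pNE and 247 and 252 TPM in pNE_M (log2 fold change 7.83 ± 0.25 SE, limma adjusted p = 5.1e-11). CDX1 read 0.0989 and 0 TPM, then 127 and 98.6 TPM, while CDX4 stayed at or below 0.603 TPM and was not tested. For CDX1 and CDX2 all pNE values lie below 0.2 TPM and all pNE_M values above 98 TPM. On GENCODE coordinates (GRCh38), CDX2 lies at chr13:27962137-27971139 on the minus strand, and URAD, a uric acid pathway gene 6574 bases away on the same strand, rose with it, from 0 in both pNE libraries to 72.6 and 63.1 TPM. Of 11 tested caudal progenitor factors, 8 were called higher and 3 (SP8, WNT8A and GDF11) did not pass. Of the 8, 5 were below 1 TPM in both pNE libraries. The rise of this list was not particular to posterior cells: in aNE_M against aNE, 8 of the 11 were also called higher. The change was called more positive in posterior cells for 2 of the 11 and in anterior cells for 3. All 15 genes of the list summed to 1073 to 1245 TPM in pNE_M and 634.9 to 883.6 TPM in aNE_M. TBXT, the brachyury gene of primitive streak and tail bud, reached 1.21 and 1.94 TPM, and NKX1-2, a marker of the caudal lateral epiblast, went from 6.94 and 6.19 TPM to 20.1 and 12.6 TPM. Without the first pNE_M library NKX1-2 was at 0.85 and no longer called, and without the second pNE library GDF11 was at 1.04 and called. FGF17 rose from 0.236 and 0.548 TPM to 28.7 and 23.2 TPM. TBX6 and WNT3A, which mark the mesodermal exit of the tail bud and its WNT source, were below 0.5 TPM in all 4 libraries.

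**Figure D3:**
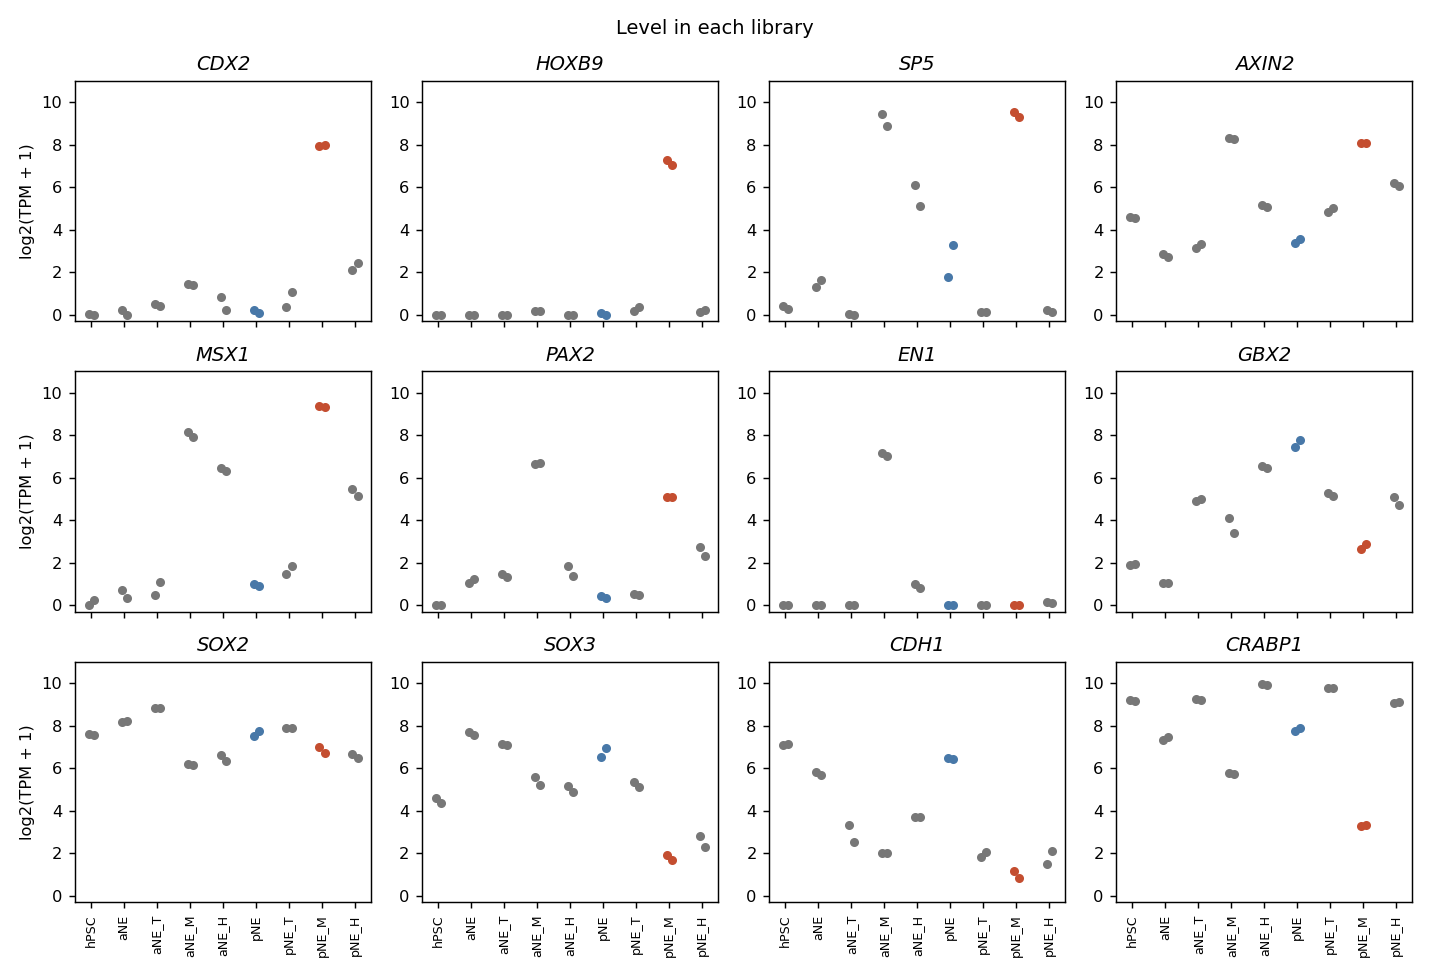
Level, log2(TPM + 1), of 12 genes in each of the 18 libraries by group, pNE in blue, pNE_M in red and the other 7 groups in grey. CDX2 and HOXB9 are high in pNE_M alone, SP5 and AXIN2 in both midbrain-medium groups, and EN1 in aNE_M with pNE_M at 0.

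The midbrain label was checked against its defining genes. EN1 was listed at 0 in both pNE_M libraries, EN2 read 0.0405 and 0.0239 TPM, PAX5 0.198 and 0.749 TPM, and CNPY1 was at 0. In aNE_M, the anterior cells in the same medium, EN1 read 141 and 128 TPM, EN2 18.8 and 16.6 TPM and PAX5 68.6 and 74.7 TPM. Only 3 of 13 midbrain and isthmus genes could be tested in pNE_M against pNE. PAX2 rose from 0.369 and 0.276 TPM to 33.0 and 33.1 TPM, LMX1B rose from 0.919 and 1.5 TPM to 5.57 and 6.22 TPM, and OTX2, the forebrain and midbrain homeobox gene, fell from 28.3 and 26.6 TPM to 4.30 and 5.38 TPM. The data thus go against the name midbrain for these cells, and they are called pNE_M, by origin and medium. Summed over 6 trunk markers (HOXB6, HOXB7, HOXB8, HOXB9, HOXC6 and CDX2), pNE_M held 559 to 606 TPM, against at most 0.280 TPM in pNE and 1.97 TPM in aNE_M. All 6 passed the expression minimum through pNE_M alone, and they were chosen with earlier results of these data known. The sum is therefore a description and not a test. HOXC8, HOXD8, HOXA9, HOXC9 and HOXD9, which are not among the 6, reached at most 1.09 TPM in the 4 libraries.

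Hindbrain segmentation genes were divided: of 17 tested, 4 were called higher and 3 lower, with 9.02% of all genes called lower. GBX2, which sets the front edge of the hindbrain against OTX2, fell from 172 and 216 TPM to 5.22 and 6.44 TPM (log2 fold change -4.83 ± 0.20 SE, limma adjusted p = 4.5e-10). Thus both members of the OTX2 and GBX2 pair fell. IRX2 and CYP26C1 fell too, to 9.52 and 9.93 TPM and to 0.172 and 0.407 TPM. The HOX cofactor MEIS1 went from 2.78 and 3.26 TPM to 27.3 and 40.6 TPM and ZNF703 from 26.8 and 43.7 TPM to 173 and 151 TPM. EGR2, of segments 3 and 5, reached 1.45 and 2.79 TPM. CYP26C1 was no longer called under median-ratio scaling (-0.97) or quantile normalization (-0.88), or without the first pNE_M library (-0.87) or the first pNE library (-0.93), nor was EGR2 without the second pNE_M library (0.83) or the first pNE library (0.99).

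Forebrain genes fell. Of 10 tested forebrain and eye field genes, 8 were called lower and 2 higher (median -2.25). SIX3 went from 49.7 and 71.7 TPM to 0.129 and 0.184 TPM, LHX5 from 38.7 and 51.1 TPM to 0 in both libraries, and HESX1 from 40.5 and 30.9 TPM to 1.49 and 1.67 TPM. SIX3 and LHX5, regulators of the anterior neural plate, were present in pNE at day 2 and were at or close to 0 at day 4. FEZF1, FEZF2, LHX2, SIX6 and VAX1 fell from lower levels. The 2 that rose were the nuclear receptors NR2F1 (0.0278 and 0.0905 TPM to 9.74 and 11.1 TPM) and NR2F2, which are also active in the hindbrain; without the first pNE library NR2F2 was at 0.96 and no longer called, leaving 1 rise.

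Neural plate factors showed exchanges within families. Of 18 tested, 3 were called higher and 5 lower, and the count lower was 2 without the second pNE_M library and 3 without the second pNE library, so several of the 5 lie close to the threshold. SOX3 fell from 91.9 and 121 TPM to 2.72 and 2.15 TPM and SOX21 from 56.8 and 72.6 TPM to 0.167 and 0.619 TPM. SOX2, another neural SOXB gene, read 181 and 211 TPM, then 127 and 103 TPM (log2 fold change -0.77 ± 0.11 SE), short of the threshold. SOX1, also of that family, was tested and not called. Both SOX2 groups are separate but near each other. ZIC1 rose from 0.928 and 1.82 TPM to 148 and 123 TPM, with ZIC4 also rising, while ZIC2 fell from 224 and 283 TPM to 126 and 105 TPM and ZIC5 fell as well. CDH2, the neural cadherin, was at 95.3 and 96.6 TPM in pNE and 104 and 106 TPM in pNE_M. PAX6 fell from 1.34 and 2.54 TPM to 0.508 and 0.232 TPM. The calls lost without the second pNE_M library were ZIC2 (-0.99), ZIC5 (-0.96) and PAX6 (-0.93), and those lost without the second pNE library ZIC2 (-0.96) and PAX6 (-0.78). PAX6 was not called under quantile normalization either (-0.97).

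Of 17 dorsoventral neural tube genes 7 were tested, and 5 were called higher and 2 lower. In 5 of these 7 genes both libraries of one group lay below 1 TPM. Besides MSX1, the dorsal gene MSX2 went from 1.32 and 2.15 TPM to 71.2 and 82.7 TPM, PAX3 from 0.421 and 0.724 TPM to 43.0 and 38.9 TPM, and PAX7 from 0.977 and 0.918 TPM to 6.55 and 6.92 TPM. The 5 rises also included NKX6-1, a ventral progenitor gene, at 5.0 and 4.95 TPM, and the 2 falls were OLIG3, a dorsal progenitor gene, and the floor plate gene FOXA2, so dorsal genes did not all move one way. Of 5 tested neuron and proneural genes, 4 were called higher: NEUROG2 from 0 in both pNE libraries to 24.8 and 14.2 TPM, HES6, DLL1 and DLL3. Without the first pNE_M library 2 of them passed, DLL3 being at 0.93 and DLL1 at a limma adjusted p of 0.0996, and DLL1 also missed without the first pNE library (adjusted p = 0.0909). The neuronal genes DCX, ELAVL3 and ELAVL4 were below 1 TPM in all 4 libraries.

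Retinoid pathway genes moved in both directions, 4 higher and 5 lower of 15 tested. CYP26A1, which breaks down retinoic acid and is induced by it, went from 352 and 348 TPM to 35.3 and 27.1 TPM, and the receptor RARB, also a direct target, from 21.4 and 20.0 TPM to 4.48 and 5.16 TPM. DHRS3 went from 56.4 and 62.9 TPM to 16.6 and 17.0 TPM. Those 3 genes therefore all fell against pNE, but they differed in the other day-4 media. CYP26A1 read 29.8 and 28.7 TPM in pNE_T and 39.5 and 31.1 TPM in pNE_H, neither called different from pNE_M. RARB read 77.8 and 85.2 TPM in pNE_T and 56.9 and 65.5 TPM in pNE_H. DHRS3 read 120 and 138 TPM in pNE_T and 106 and 107 TPM in pNE_H. RARB and DHRS3 were called lower in pNE_M than in either. Binding proteins were exchanged: CRABP1 fell from 216 and 236 TPM to 8.69 and 9.09 TPM (log2 fold change -4.52 ± 0.06 SE, limma adjusted p = 4.3e-14) while CRABP2 rose. STRA6, a membrane receptor for retinol-binding protein, rose from 88.9 and 119 TPM to 635 and 738 TPM, and RDH10 also rose.

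FGF ligands and receptors gave 3 higher and 4 lower of 12 tested. FGFR3 fell from 128 and 166 TPM to 8.96 and 7.73 TPM, FGFR1 and FGFR2 fell less, and FGFR4 rose from 29.3 and 32.1 TPM to 115 and 109 TPM. FGFR1, at 249 and 243 TPM, was the highest of the 4 receptors at day 4 as at day 2. Among 21 ERK feedback and response genes, 3 were called higher (IL17RD, SPRY2 and DUSP4) and 5 lower (FOSL1, PHLDA1, IER3, MYC and ETV1). DUSP4 was not called without the second pNE_M library (0.95) or the first pNE library (0.94), and the count higher was 5 without the second pNE library and under median-ratio or quantile scaling. DUSP6 read 274 and 238 TPM, then 249 and 257 TPM, and SPRY4 77.5 and 86.0 TPM, then 71.8 and 73.9 TPM, neither passing.

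BMP response genes were among those higher in pNE_M than in pNE. Of 18 tested BMP and TGF-beta genes, 7 were called higher and 2 lower. ID1, an immediate BMP target, went from 15.0 and 21.3 TPM to 162 and 167 TPM, the feedback inhibitor SMAD6 from 3.81 and 4.71 TPM to 10.7 and 12 TPM, and the secreted antagonist NOG from 0.151 and 0 TPM to 58.5 and 60.8 TPM. ID2, BMP2, BMPR1B and CER1 completed the 7, of which BMP2 was not called without the first pNE library (0.92) and CER1 not without the second pNE_M library (0.85). In the other day-4 media ID1 read 181 and 202.5 TPM (pNE_T) and 368 and 274 TPM (pNE_H). SMAD6 read 16.6 and 16.2 TPM, and 17.5 and 12.7 TPM. NOG read 4.65 and 5.97 TPM, and 37.5 and 26.2 TPM. Of the 18 genes, 3 were called higher and 3 lower in pNE_M than in pNE_T. Against pNE_H, 2 were called higher and 8 lower. TDGF1, the NODAL co-receptor, fell from 32.9 and 27.8 TPM to 0.0376 and 0 TPM. TDGF1 and POU5F1 have processed copies elsewhere in the genome, so reads may be split between them. Hedgehog pathway genes were called higher in 5 of 9 cases, among them PTCH1 (23.8 and 26.5 TPM to 85.3 and 78.6 TPM), HHIP and GLI3. The direct target GLI1 read 15.0 and 10.9 TPM, then 15.4 and 6.69 TPM, with overlapping groups. 

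Pluripotency and epithelial genes fell together. Of 12 tested pluripotency genes, 9 were called lower and 1, FOXD3, higher. POU5F1 went from 171 and 169 TPM to 4.17 and 5.31 TPM, PRDM14 from 10.1 and 12 TPM to 0.160 and 0.546 TPM, and DNMT3B from 358 and 413 TPM to 93.4 and 101 TPM. POU5F1 protein is a core factor of the stem cell state, and its transcript was still present at day 2. NANOG was below 0.6 TPM in all 4 libraries. CDH1, the epithelial cadherin, fell from 88.6 and 86.3 TPM to 1.20 and 0.759 TPM (log2 fold change -5.49 ± 0.23 SE, limma adjusted p = 5.7e-10). EPCAM fell from 180 and 163 TPM to 8.61 and 9.02 TPM, the splicing regulator ESRP1 from 37.5 and 32.7 TPM to 0.327 and 0.234 TPM, and CLDN6 from 741 and 841 TPM to 35.6 and 37.7 TPM. In all, 7 of 15 tested cadherin and epithelial genes fell and 5 rose, among them CDH11 (9.57 and 13.6 TPM to 232 and 252 TPM), VIM, ZEB1 and ZEB2. Without the first pNE library 2 rises were called, ZEB1 being at 0.97 and ZEB2 at 0.98. Other large falls were the neuroendocrine granule gene CHGA (258 and 323 TPM to 3.65 and 3.76 TPM), the sodium channel subunit SCNN1A, RARRES2, ZSCAN10 and TRBC2, the last a T-cell receptor segment with a near-identical neighbour and so uncertain. TMSB4X, CLDN6, CD24 and TPM1 were among the genes that lost most by level.

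**Figure D4:**
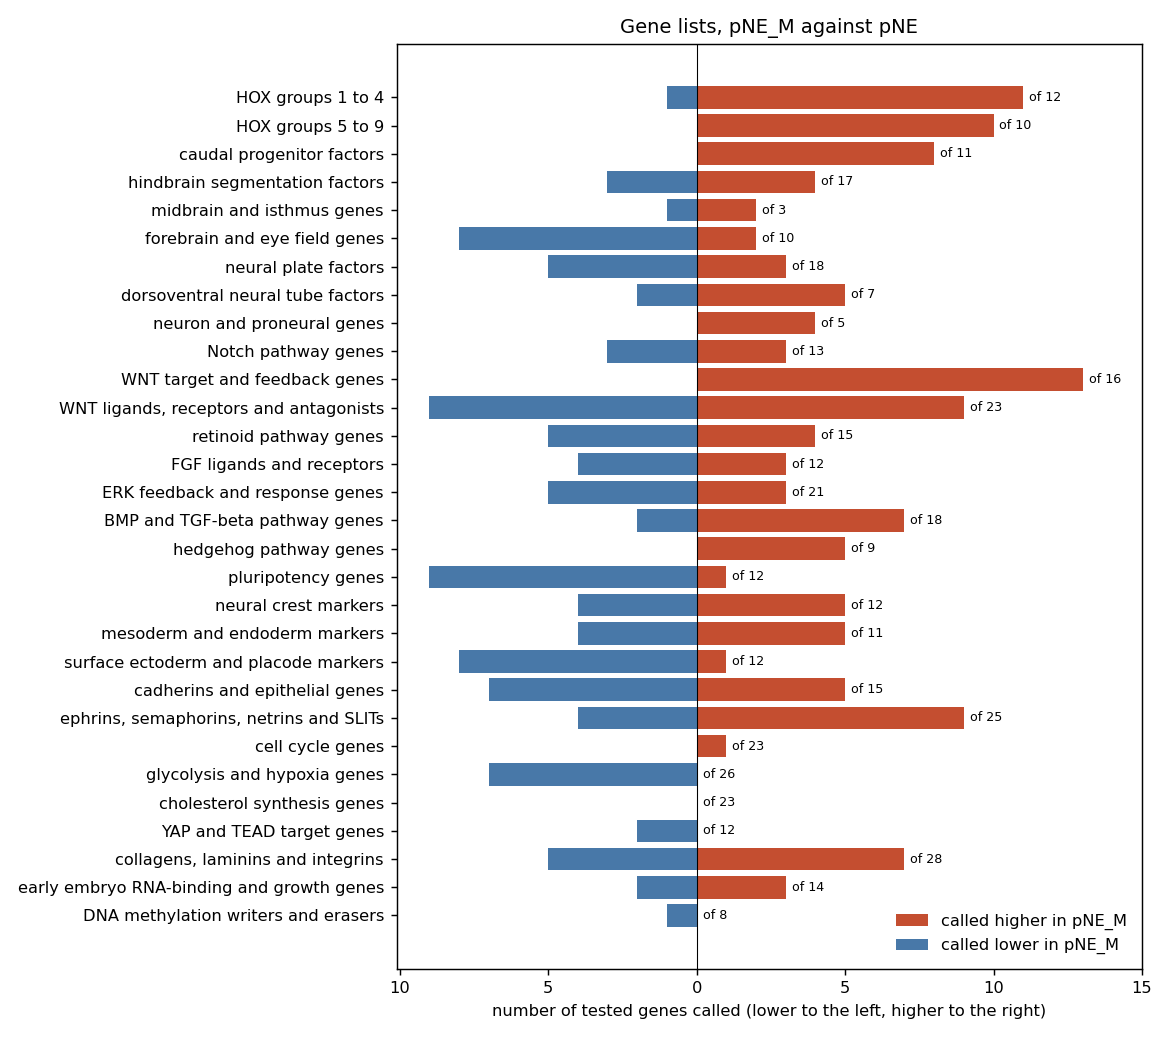
Number of tested genes called higher (red, to the right) and lower (blue, to the left) in pNE_M against pNE for each of 30 gene lists, with the number tested beside each bar. WNT targets and HOX genes lie to the right, and forebrain, pluripotency and surface ectoderm genes to the left.

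Markers of other cell types moved in both directions. In the whole neural crest list of 15 genes, 12 were tested, 5 were called higher and 4 lower (median 0.12), and the sum was 241.5 to 297.0 TPM in pNE and 183.1 to 184.6 TPM in pNE_M. NGFR, a neurotrophin receptor, was 1 of the 4 that fell, from 113 and 144 TPM to 9.32 and 10.1 TPM. Taken alone, 5 defining markers summed to 3.01 to 3.77 TPM in pNE and 36.1 to 43.9 TPM in pNE_M; 3 of the 5 (SOX10, FOXD3 and SNAI2) were called higher, whereas TFAP2A reached at most 1.39 TPM and TFAP2B 0.585 TPM. SOX10 read 5.35 and 5.43 TPM, SNAI2 17.3 and 17.4 TPM and FOXD3 20.2 and 11.6 TPM in pNE_M. The same 5 summed to 12.9 to 13.5 TPM in aNE_M. In the undifferentiated stem cells (hPSC) they summed to 35.1 to 40.9 TPM, FOXD3 alone reading 35.2 and 31.8 TPM. For mesoderm, 8 markers summed to 9.44 to 10.6 TPM in pNE and 43.3 to 43.7 TPM in pNE_M. In aNE_M they summed to more, 111.4 to 134.2 TPM. In pNE_M, MEOX1 (23.9 and 28.1 TPM), MIXL1 (12.2 and 10.9 TPM) and TBXT were called higher. TBX6, MSGN1, EOMES and MESP1 were below 0.5 TPM. TCF15 was called lower, but not without the second pNE_M library (-0.69) or the second pNE library (limma adjusted p = 0.0503), nor in a limma fit of the compared groups only (adjusted p = 0.0536). In the whole list of mesoderm and endoderm markers, 5 of 11 tested genes were called higher and 4 lower, and the 20 genes summed to 47.3 to 53.2 TPM in pNE and 82.7 to 86.9 TPM in pNE_M. Endoderm markers summed to at most 4.07 TPM, with SOX17 at 0 in all 4 libraries. Of 12 tested surface ectoderm and placode genes, 8 were called lower and 1 higher, the simple-epithelium keratin KRT8 (440 and 510 TPM to 1002 and 986 TPM), which was at 0.96 and not called without the first pNE library. The 18 genes of that list summed to 1233 to 1386 TPM in pNE and 2080 to 2139 TPM in pNE_M. Its defining markers summed to at most 12.2 TPM in pNE and 5.11 TPM in pNE_M, TP63 being at most 0.113 TPM. MSX1, PAX3, ZIC1 and CDH11 are used by neural crest as well as by dorsal neural tube, and the part of any such cells in these values was not tested. Of the neural ectoderm markers, SOX3, PAX6 and ZIC2 fell and the 7 together summed to 531 to 574 TPM, against 868 to 1061 TPM in pNE.

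The same medium was then compared between origins. The interaction, the change of posterior cells minus that of anterior cells, was called for 1105 genes (7.49%), 539 positive (3.66%) and 566 negative (3.84%). In aNE_M against aNE 12.6% of genes were called, 4.53% higher and 8.10% lower. These counts and shares cover only genes that passed the expression minimum in the posterior libraries. Genes high in anterior cells alone, among them EN1, EN2 and PAX5, were not tested, so the anterior response is incomplete here. Density rose more for posterior than for anterior cells, so origin and density cannot be told apart in the interaction. The 6 most positive interactions were those of HOXB6 (7.06), HOXB9 (6.94), CDX2 (6.49), HOXD1 (6.24), IGF2 (6.14) and CDX1 (5.92). In aNE_M, CDX2 read 1.76 and 1.67 TPM, CDX1 0.677 and 0.889 TPM, HOXB9 0.146 and 0.120 TPM and IGF2 11.4 and 14 TPM. All HOX genes together stayed at or below 1.41 TPM there. Of the 22 tested HOX genes, 21 had a positive called interaction and 1 a negative one. The 10 tested genes of groups 5 to 9 and 7 of the 12 of groups 1 to 4 passed the expression minimum through pNE_M alone. With so little HOX transcript in anterior cells, the count of 21 repeats the posterior change and is a description. Of the 16 tested WNT target and feedback genes, 11 were called higher in anterior cells, and 7 had a called interaction, 4 positive and 3 negative. AXIN2 and SP5 rose in both origins: AXIN2 read 315 and 312 TPM and SP5 706 and 473 TPM in aNE_M, and neither interaction was called (-0.89 ± 0.14 SE and -0.84 ± 0.56 SE). In aNE_M AXIN2 lay above both pNE_M libraries, and the SP5 values of the groups overlapped. DKK1 and APCDD1 rose further in anterior cells (interactions -1.94 and -3.17), RNF43 and TNFRSF19 further in posterior cells (2.06 and 2.19). LGR5 was called higher in posterior cells and not in anterior cells (-0.11), and WIF1 in anterior cells (2.62) and not in posterior cells, each with a called interaction.

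Among the most negative interactions of the tested genes, GBX2 stood first at -7.56. GBX2 fell in posterior cells and rose in anterior cells, from 1.04 and 1.05 TPM to 16.2 and 9.67 TPM. CEACAM21 (-5.66), TMEM59L (-5.58) and F13A1 (-5.38) likewise fell in posterior and rose in anterior cells. ZNF503, a zinc finger repressor of the hindbrain, read 88.1 and 122 TPM in pNE and 148 and 152 TPM in pNE_M, which was not called, and went from 1.04 and 1.43 TPM to 211 and 195 TPM in anterior cells (interaction -5.99). Both aNE_M values of ZNF503 lay above both pNE_M values. Of 21 ERK feedback and response genes, 11 had a negative called interaction and 3, MYC among them, a positive one. The negative ones included SPRY4, which was not called in posterior cells and went from 6.40 and 5.03 TPM to 137 and 153 TPM in anterior cells, and IER3 and ETV1, which fell in posterior cells and were not called in anterior cells. In the pluripotency list 3 of 12 interactions were called. MSX1, CRABP2, VIM and the fall of SIX3 had interactions that were not called.

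**Figure D5:**
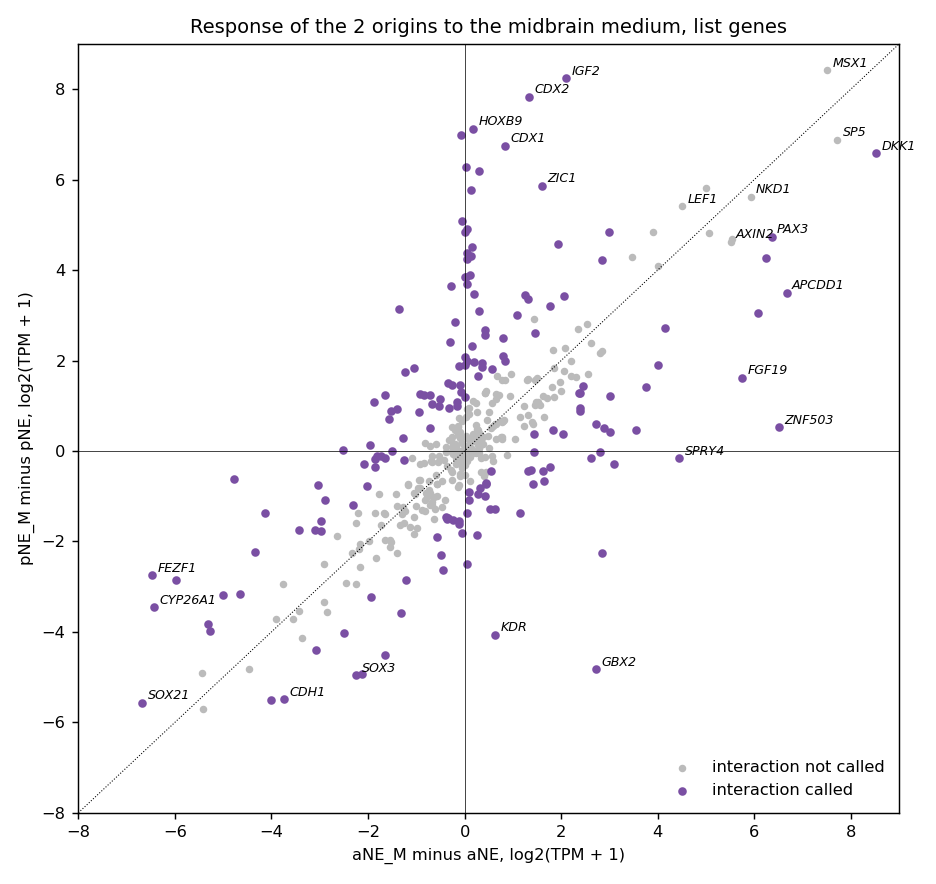
Change in the midbrain medium on log2(TPM + 1) for tested genes of the 31 lists, anterior cells on the x axis and posterior cells on the y axis, purple where the interaction was called; the dotted line marks equal change. HOXB9, CDX2, CDX1 and IGF2 lie along the y axis, AXIN2, NKD1 and LEF1 near the line, and GBX2 in the lower right.

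Posterior cells in the other media gave a comparison at the same day and plating density. Against pNE_T, 1348 genes were called (9.14%), 558 higher (3.78%) and 790 lower (5.36%) in pNE_M, and against pNE_H 914 (6.20%), 505 higher (3.43%) and 409 lower (2.77%). These comparisons share the pNE_M libraries, so their values are given side by side. CDX2 read 0.274 and 1.12 TPM in pNE_T and 3.34 and 4.39 TPM in pNE_H, CDX1 at most 0.445 TPM in either, and HOXB9 at most 0.297 TPM. SP5 read at most 0.0967 TPM in pNE_T and 0.171 TPM in pNE_H. Each of these genes was thus high in the midbrain medium alone among the posterior cells (log2 differences of 7.25 and 5.69 for CDX2, 6.87 and 6.98 for HOXB9, and 9.30 and 9.25 for SP5). All 10 tested HOX genes of groups 5 to 9 were called higher than in pNE_T and 9 higher than in pNE_H. The exception was HOXA5, at 14.7 and 14.2 TPM in pNE_H. Those 10 genes passed the expression minimum through pNE_M alone, so their counts are descriptions and not a test of the medium. For groups 1 to 4 the counts were 6 and 5 of 12 called higher, with 1 called lower in each comparison. HOXB1 did not differ by the call from pNE_H, where it read 347 and 312 TPM. Of 16 WNT targets, 12 were higher than in pNE_T and 11 higher than in pNE_H. 

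IGF2 was high in every posterior day-4 group, at 900 and 972 TPM in pNE_T and 1381 and 1175 TPM in pNE_H, with differences of 0.25 ± 0.16 SE and -0.20 ± 0.16 SE from pNE_M. The fall of POU5F1, CDH1 and EPCAM was also shared: each differed from pNE_T and pNE_H by less than 1 log2 unit. In contrast, CHGA was at 138 and 163 TPM in pNE_T and 294 and 241 TPM in pNE_H, and VIM at 702 and 739 TPM and at 733 and 678 TPM, and both genes were called different from pNE_M in each comparison. CRABP1 was called lower than in both, reading 533 and 559 TPM in pNE_H. Of 17 hindbrain segmentation genes, 10 were called lower than in pNE_H and 8 lower than in pNE_T, MEIS1 and MEIS3 among them.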

How the data were processed

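The data were poly-A RNA libraries of H1 cells, 9 groups of 2 replicates. The authors deposited 1 table of TPM values; kallisto, Trim Galore, FastQC, bcl2fastq and deepTools and the build hg38 are named in the submitters' processing notes, without roles, and versions and the annotation are not given in the sources used here. Of 37550 rows, 7898 carried a transcript identifier in place of a symbol, and 99.8% of symbols matched a human gene name. TPM keeps no read number, so depth and counting error are unknown.

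From these values log2(TPM + 1), a pseudocount of 1, was fitted with limma 3.58.1 in R 4.3.3, with 1 mean per group over all 18 libraries (9 residual degrees of freedom) and a variance trend. Genes needed at least 1 TPM in at least 2 of the 4 compared libraries. Tests were two-sided, adjusted over all 14744 genes by the Benjamini-Hochberg method, and a call needed an adjusted p under 0.05 with a log2 change of 1 or more either way. On this scale the change of weakly expressed genes comes out too small. Errors are SE from limma; tables were summarised in Python 3.11.15 with pandas 2.3.3. The fit was tested on simulated data.

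Named genes were the 12 largest rises and 12 largest falls (called, with a symbol, groups not overlapping, at least 5 TPM in the higher group), the 6 most positive and 6 most negative interactions, the 5 rises and 5 falls with the largest difference in mean TPM, and members that turn the count of 31 gene lists or define them. Some genes that this rule picks are not reported here. The comparison, members and lists were chosen with earlier results of these data known. Promoters were RefSeq sequences on GRCh38.p14. Alternatives were another pseudocount, other filters and scalings, other fits and leaving out each library.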

Additional observations from a re-analysis of the deposited data

Results flagged for a closer look

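A difference between the origins in their change in the midbrain medium, tested as an interaction in limma, marked 1105 genes for a closer look. The named ones were HOXB6 (7.06), HOXB9 (6.94), CDX2 (6.49), HOXD1 (6.24), IGF2 (6.14) and CDX1 (5.92), which rose more in posterior cells, and GBX2 (-7.56), ZNF503 (-5.99), CEACAM21 (-5.66), TMEM59L (-5.58) and F13A1 (-5.38), whose change was more positive in anterior cells. All values are log2 differences of changes, 2 libraries per group. Only genes that passed the expression minimum in the posterior libraries were tested, so genes high in anterior cells alone are missing. Plating density differed between the origins at day 4, and its part cannot be told apart.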

How the results depend on the processing

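Calls needed a log2 change of 1 or more; with the adjusted p alone, 6049 genes changed in pNE_M against pNE, 2333 interactions were called, 4775 genes differed from pNE_T and 3255 from pNE_H. Every other alternative kept these counts within 1.5 times: 1523 (filter at 5 TPM) to 2506 (pseudocount 0.1) for pNE_M against pNE, 809 to 1195 for the interaction, 991 to 1688 against pNE_T and 642 to 1170 against pNE_H. Leaving out 1 library gave 2065 to 2184, 989 to 1124, 1352 to 1400 and 879 to 959. With the replicate block the counts were 2158, 1098, 1352 and 917; equal numbers do not pair the samples, since over 36 pairs of groups the correlation of same-numbered deviations ran from -0.12 to 0.103 and was -0.03 for pNE with pNE_M. The share of called genes that were higher was 38.3%, 42.9% under median-ratio scaling and 46.9% under quantile normalization. Of 1449 values of named genes under alternatives, 1415 kept direction and side of the threshold. Direction turned in uncalled genes: WIF1 under quantile normalization (0.0129), DUSP6 under median-ratio scaling (0.0642), quantile normalization (0.0147) and without 1 library (-0.114 to 0.0898), and GLI1 without 1 library (-0.84 to 0.25). The number of HOX genes of groups 5 to 9 called higher was 6 with a filter at 5 TPM. Where 1 library was left out, the lone library of that group was assumed to vary like the other groups.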

Other observations

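Axon guidance and matrix genes, not described above, also moved. Of 25 tested ephrin, semaphorin, netrin and SLIT genes, 9 were called higher and 4 lower in pNE_M against pNE. SEMA3C, a secreted semaphorin, went from 1.84 and 2.08 TPM to 65.5 and 74.0 TPM, and the semaphorin co-receptor PLXNA2 from 9.34 and 11.6 TPM to 96.2 and 86.2 TPM, while SEMA6A fell from 269 and 318 TPM to 31.0 and 29.9 TPM. SEMA3C read 62.6 and 62.1 TPM in pNE_T and 55.0 and 71.3 TPM in pNE_H, neither called different from pNE_M, and PLXNA2 was called higher than in pNE_T (38.9 and 37.9 TPM). Of 28 collagens, laminins and integrins, 7 were called higher and 5 lower. COL3A1, a fibrillar collagen of mesenchyme, went from 0.0138 and 0 TPM to 10.6 and 9.74 TPM, and COL2A1 from 59.3 and 72.1 TPM to 409 and 457 TPM. The laminin receptor subunits ITGA3 and ITGA6 fell, ITGA6 from 90.6 and 91.6 TPM to 13.4 and 15.7 TPM.

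Of 23 tested cell cycle genes the 1 called was CDKN1C, an imprinted cell cycle inhibitor, which rose from 7.94 and 6.59 TPM to 45.0 and 46.1 TPM. In the glycolysis and hypoxia list 7 of 26 genes fell, led by ADM (246 and 259 TPM to 19.2 and 17.2 TPM) and EGLN3 (28.2 and 29.4 TPM to 4.26 and 4.23 TPM), both hypoxia-induced genes. KDR, the VEGF receptor, fell from 20.9 and 17.6 TPM to 0.133 and 0.289 TPM in posterior cells and read 3.35 and 3.56 TPM, then 5.13 and 6.70 TPM, in anterior cells (interaction -4.69, limma, 2 libraries per group).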
